A study of Mus musculus with 4 samples.

Results

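Circadian clock genes were measured by 14 clones of 10 genes, out of 16471 clones and 8106 named genes on the arrays. The genes were Arntl, Clock, Npas2 and Cry1, called the Arntl phase here, and Ciart, Per3, Nr1d2, Tef, Usp2 and Wee1, called the Dbp/Per phase. Every clone whose annotation gives only 1 of these symbols was taken. The genes themselves had been picked with these log ratios in view, so their values are a description and carry no test.

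The hearts came from 6 male wild-type mice labelled 1-renin, of a 129Ola/C57BL/6J background at backcross N5–6, aged 12 to 13 weeks. All had 1 kidney removed, ate food with 0.5 mg Na per g and received deoxycorticosterone acetate (DOCA), a mineralocorticoid, for 5 weeks. Drinking water held 1% NaCl for the 3 mice of the high-salt group and was plain tap water for the 3 of the low-salt group, so the comparison concerns salt in mice that were all treated with DOCA. Each printed cDNA array set the ventricles and septum of 1 high-salt mouse against those of 1 low-salt mouse. No source used here gives the time of day at which the hearts were taken.

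The clock is a feedback loop of transcription. The proteins of Arntl (BMAL1) and of Clock or its paralogue Npas2 form a dimer that binds E-boxes and drives the Per, Cry and Nr1d genes and the genes of PAR bZIP factors such as Dbp and Tef. PER and CRY proteins then repress the dimer, and the REV-ERB receptors repress Arntl through ROR elements, so Arntl transcripts run nearly opposite in phase to those of Dbp and the Per genes. The heart has such a clock of its own, which is known for daily rhythms in fuel use and in ion channel genes.

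Pair 1 was hybridised on array 1, pair 3 on array 3 and pair 2 on arrays 2 and 4 with the dyes exchanged. High-salt RNA carried Cy3 on arrays 1 and 2, whereas it carried Cy5 on arrays 3 and 4. Values are the authors' log ratios, taken as log2, and a positive value is read as higher in high salt. That reading is likely from the array titles and not settled, because over 16471 clones the arrays of opposite dye orientation correlated at -0.34 (arrays 1 and 3), -0.08 (1 and 4), -0.37 (2 and 3) and -0.07 (2 and 4), whereas arrays of the same orientation, which held different mice, correlated at 0.57 (1 and 2) and 0.43 (3 and 4). Features are not independent replicates. If all 4 arrays ran the other way, every sign would turn and every size would stay. The base of the logarithm is assumed. The 4 arrays of 3 animal pairs limit the precision, and no intensities were used here. The file gives ratios and no levels, so whether cardiac markers were abundant could not be checked, and of 13 cardiomyocyte markers 3 were measured, between -0.15 and 0.07.

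Windows from 250 bases before to 50 bases after the transcription start were taken from RefSeq, build GRCm38.p6, for 9 of the 10 genes (all but Wee1), 13 windows in all. They were searched on both strands for the E-box CACGTG, the D-box TTANGTAA, which PAR bZIP factors such as TEF bind, and the ROR element core TAGGTCA, and no matches overlapped. The windows of 4 genes that hold matches are shown because they belong to the genes with the clearest or most clone-dependent values below, with matches in capitals and every sequence read 5′ to 3′ on the strand of the gene. The Ciart window is chr3:95882179-95882478 on the minus strand, the Cry1 window chr10:85185005-85185304 on the minus strand, the Per3 window chr4:151044616-151044915 on the minus strand and the Arntl window chr7:113207261-113207560 on the plus strand.
Ciart: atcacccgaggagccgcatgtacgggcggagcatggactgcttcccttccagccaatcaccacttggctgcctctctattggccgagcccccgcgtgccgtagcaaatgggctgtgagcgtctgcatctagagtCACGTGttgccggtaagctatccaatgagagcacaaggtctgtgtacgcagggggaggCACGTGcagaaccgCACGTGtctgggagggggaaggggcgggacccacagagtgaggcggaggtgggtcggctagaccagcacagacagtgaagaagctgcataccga
Cry1: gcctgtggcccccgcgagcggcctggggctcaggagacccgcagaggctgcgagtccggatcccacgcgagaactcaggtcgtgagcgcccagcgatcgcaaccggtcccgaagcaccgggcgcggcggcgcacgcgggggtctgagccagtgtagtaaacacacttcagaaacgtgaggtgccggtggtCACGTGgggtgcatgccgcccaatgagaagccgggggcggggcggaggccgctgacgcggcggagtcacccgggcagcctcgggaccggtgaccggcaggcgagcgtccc
Per3: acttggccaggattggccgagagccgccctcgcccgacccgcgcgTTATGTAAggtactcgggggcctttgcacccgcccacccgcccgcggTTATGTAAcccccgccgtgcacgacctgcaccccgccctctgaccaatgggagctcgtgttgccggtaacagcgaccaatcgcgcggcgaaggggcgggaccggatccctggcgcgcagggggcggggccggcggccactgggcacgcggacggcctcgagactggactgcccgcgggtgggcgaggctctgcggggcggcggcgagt
Arntl: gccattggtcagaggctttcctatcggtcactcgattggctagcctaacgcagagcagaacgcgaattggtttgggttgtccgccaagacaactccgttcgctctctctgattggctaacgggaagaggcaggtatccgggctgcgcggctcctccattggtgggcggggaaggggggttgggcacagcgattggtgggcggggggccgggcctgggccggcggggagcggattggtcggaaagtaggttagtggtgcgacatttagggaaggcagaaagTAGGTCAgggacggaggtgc

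The Ciart window held 3 E-boxes, which began 116, 58 and 44 bases before the start. An E-box occurred in 7.15% of all 32851 windows of this length, and 3 or more occurred in 29 windows. Cry1 had 1 E-box, 60 bases before its start, and each of the 2 Tef windows had 1. Per3 had no E-box there but 2 copies of the D-box TTATGTAA, 205 and 158 bases before its start, a motif in 2.32% of windows. The second Arntl window held the ROR element core 31 bases after the start, a motif in 2.61% of windows, and the first Arntl window, which begins further upstream, did not. No match was found in the windows of Clock, Npas2, Nr1d2 and Usp2. A match is a run of letters and not a shown binding site.

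Arntl and Ciart lay far apart and on opposite sides of 0 on every array. Arntl, the transcription factor at the centre of the loop, had log2 ratios of -1.27, -0.49, -0.91 and -0.38 on arrays 1 to 4. All 4 were below 0, and those of pairs 1 and 3 were lower than both arrays of pair 2. The mean was -0.87 ± 0.42 (SD, n = 3 pairs), 1.83-fold lower in high salt as read here, and it ranked 21 from the lowest of 8106 genes. Ciart, also known as CHRONO, a repressor of the CLOCK-BMAL1 dimer, stood at 1.55, 0.68, 1.22 and 0.86. Again all 4 arrays had 1 sign and pair 2 was the smallest. Its mean was 1.18 ± 0.39 (SD, n = 3 pairs), 2.26-fold higher, and it ranked 6 from the highest.

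Turning an array changes the sign of both genes together, so their opposition within an array does not depend on the reading of direction. The difference of their log2 ratios was 2.82, 1.17, 2.13 and 1.24 on arrays 1 to 4, a change in the Ciart to Arntl ratio of 7.04-fold, 2.25-fold, 4.38-fold and 2.36-fold. Over the pairs it was 2.05 ± 0.81 (SD, n = 3 pairs) as deposited. The sign of each difference, and so this mean, does depend on the reading of direction. With arrays 1 and 2 turned, the mean log2 ratio was -0.08 for Ciart and 0.14 for Arntl. The 2 genes were opposite in sign in each of the 4 hybridisations, whichever mouse is taken as the numerator. Both are represented by 1 clone each.

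**Figure D1:**
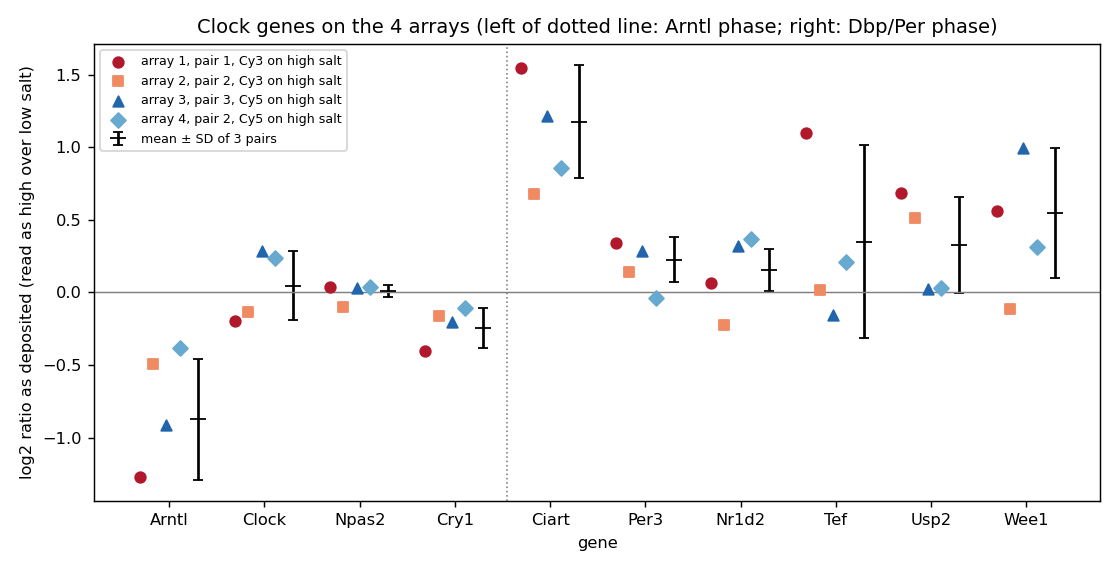
Log2 ratio (vertical axis, as deposited) of the 10 clock genes on the 4 arrays, with the mean ± SD of 3 pairs as a black bar; clones of a gene are averaged. Arntl lies between -1.27 and -0.38 and Ciart between 0.68 and 1.55, while Clock and Npas2 scatter around 0.

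The rest of the Arntl phase was not of 1 kind. Cry1, a repressor of the dimer whose transcripts peak late and closer to Arntl than to the Per genes, had log2 ratios of -0.40, -0.16, -0.20 and -0.11. All were below 0, and the mean was -0.25 ± 0.14 (SD, n = 3 pairs). Clock, the partner of BMAL1, stood at -0.20, -0.14, 0.28 and 0.24, negative on the arrays with Cy3 on high salt and positive on those with Cy5 on it. Its mean of 0.05 ± 0.24 changed sign without pair 3, at -0.07, and with pair 2 taken from array 2 alone, at -0.016. Npas2, the paralogue of Clock, was close to 0 everywhere, at 0.040, -0.10, 0.027 and 0.034, with a mean of 0.010 ± 0.040. Its sign turned without pair 1 and with pair 2 from array 2 alone.

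The Dbp/Per phase had a positive mean for each of its 6 genes, of very different steadiness. Per3, a member of the Period family of repressors, had log2 ratios of 0.34, 0.14, 0.29 and -0.04 and a mean of 0.22 ± 0.15 (SD, n = 3 pairs). Only array 4 was below 0. Wee1, a kinase that holds back CDK1 and a known clock target, stood at 0.56, -0.12, 0.99 and 0.31, with a mean of 0.55 ± 0.45. Pairs 1 and 3 lay above both arrays of pair 2, and without pair 3 the mean was 0.33.

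Usp2, a ubiquitin-specific protease with a strong daily rhythm in many tissues, stood at 0.68, 0.51, 0.026 and 0.030. It was above 0 on all arrays, but only the arrays with Cy3 on high salt lay clearly away from 0. The mean of 0.33 ± 0.33 (SD, n = 3 pairs) was 0.15 without pair 1. Tef, a PAR bZIP factor that binds D-boxes, stood at 1.10, 0.015, -0.16 and 0.21. Its mean of 0.35 ± 0.66 rested on pair 1 and was -0.024 without it. Nr1d2, which encodes REV-ERB beta, a repressor of Arntl, stood at 0.06, -0.22, 0.32 and 0.37. Its mean of 0.15 ± 0.15 was 0.07 without pair 3, and it was 0.05 or 0.25 when pair 2 was taken from array 2 or from array 4 alone.

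By limma's test, 0 of the 10 genes had an adjusted p under 0.05, beside 0 of 8106 genes (0%), and the smallest adjusted p of any gene was 0.64. At an unadjusted p under 0.05 there were 3 of the 10 genes, beside 5.44% of all genes. Ciart and Usp2 were above 0 on all 4 arrays, beside 7.01% of genes, and Arntl and Cry1 were below 0 on all 4, beside 7.75%. The genes had been chosen on this contrast, so nothing is read from these counts.

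As groups, the Arntl phase had a median log2 ratio of -0.12 and the Dbp/Per phase one of 0.34, beside a median over all genes of -0.0003. The medians were -0.30, -0.15, -0.09 and -0.04 on arrays 1 to 4 for the Arntl phase and 0.62, 0.08, 0.30 and 0.26 for the Dbp/Per phase. The Dbp/Per median thus lay above the Arntl-phase median on each of the 4 arrays, by 0.92, 0.23, 0.39 and 0.30. On array 1 the gene values, averaged over clones, just failed to overlap. The highest Arntl-phase gene there, Npas2, stood at 0.040 and the lowest Dbp/Per-phase gene, Nr1d2, at 0.06. Single clones did overlap on that array, with Clock clone 1 at 0.24 above Nr1d2 clone 1 at -0.16. On arrays 2, 3 and 4 the gene values of the groups overlapped, for example on array 2, where Nr1d2 at -0.22 lay below Npas2 at -0.10. The Arntl-phase median depended on its first gene, and without Arntl it was 0.010. Without Ciart the Dbp/Per median was 0.33, and without pair 1 the 6 genes had a median of 0.18.

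Clock, Per3 and Nr1d2 had several clones each, and the clones did not always give 1 value. Clock clone 1 stood at 0.24, near 0, 0.38 and 0.24 on arrays 1 to 4, whereas clone 2 stood at -0.63, -0.27, 0.19 and 0.24. The clones thus parted on the arrays with Cy3 on high salt and were closer on the others, with means of 0.25 ± 0.13 and -0.16 ± 0.43 (SD, n = 3 pairs). Per3 clone 1 was above 0 on all arrays, at 0.68, 0.41, 0.26 and 0.10, while clone 2 was below 0 on 3 of them, at -0.0071, -0.14, 0.31 and -0.19. Their means were 0.40 ± 0.24 and 0.05 ± 0.24, so the gene value averages a clone with 1 sign and a clone of mixed signs. The clones had opposite signs on arrays 1, 2 and 4.

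The 3 Nr1d2 clones had means of 0.18 ± 0.48, 0.20 ± 0.066 and 0.07 ± 0.0056 (SD, n = 3 pairs). All 3 were below 0 on array 2, at -0.37, -0.23 and -0.07, and above 0 on arrays 3 and 4. The very small SD of clone 3 arose where -0.07 on array 2 and 0.22 on array 4 averaged to 0.07, and it does not measure the error of the clone. The other 7 genes had a single clone, so no second clone was there to set beside Arntl or Ciart.

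**Figure D2:**
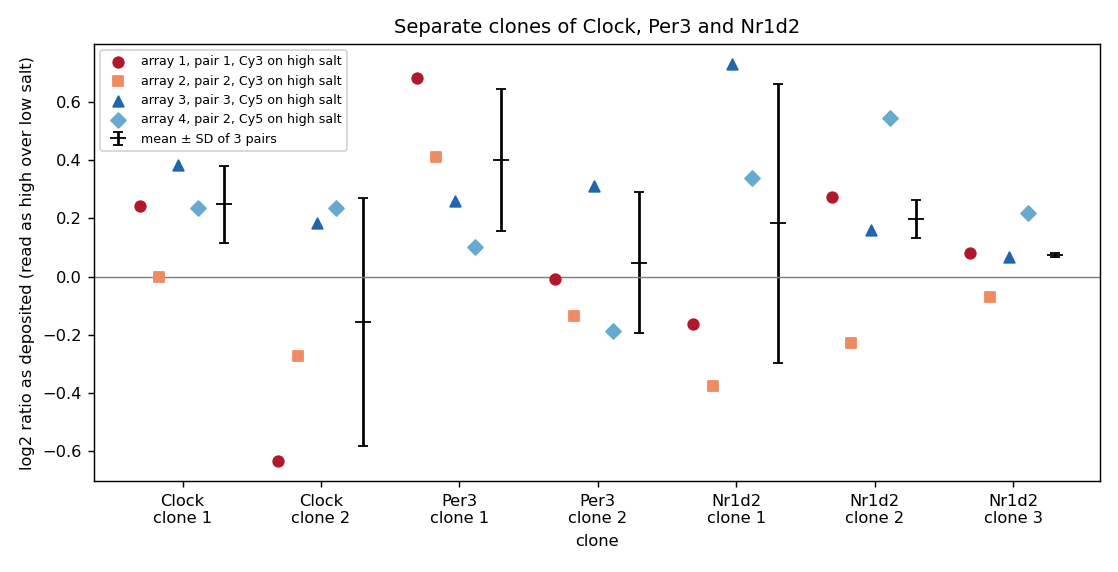
Log2 ratio (vertical axis, as deposited) of each clone of Clock, Per3 and Nr1d2 on the 4 arrays, with the mean ± SD of 3 pairs as a black bar. Clock clone 2 runs from -0.63 on array 1 to 0.24 on array 4, and Per3 clone 1 is the only one of these 7 clones that is above 0 on all arrays.

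Several of these values differed between the arrays of the 2 dye orientations. The dye offset, the mean of arrays 1 and 2 minus the mean of arrays 3 and 4, divided by 2, was -0.12 for Arntl, 0.037 for Ciart, 0.06 for Per3 and -0.06 for Cry1. For each of these genes the pair mean was the larger in size. For Clock the offset was -0.21, for Nr1d2 -0.21 and for Npas2 -0.031, larger in size than their pair means. For Wee1 the offset was -0.22, smaller in size than its pair mean of 0.55. For Usp2, at 0.28, and Tef, at 0.27, it came close to the pair mean. Arrays 1 and 3 held different mice, so the offset mixes dye orientation with animal pair. Only arrays 2 and 4 exchange the dyes of the same mice, and there Tef ran against its offset, at 0.015 and 0.21. The pair mean exceeded the offset in 7 of the 10 genes, beside 39% of all genes. If the authors had not turned the swapped arrays, the offset would hold the effect of salt and the pair mean that of dye.

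**Figure D3:**
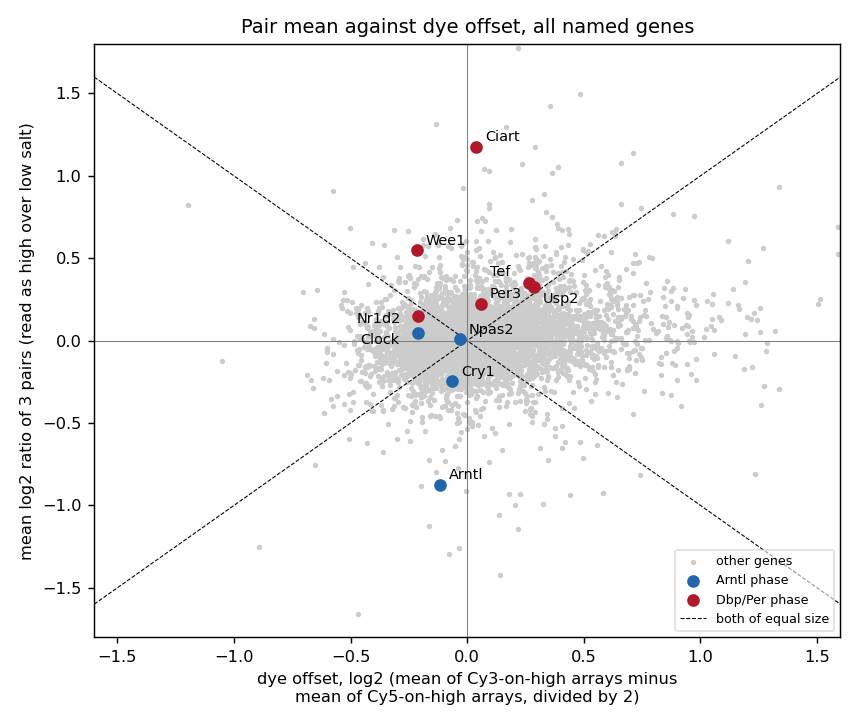
Mean log2 ratio of 3 pairs (vertical axis) against the dye offset (horizontal axis, log2) for the 8106 named genes, 9 of which lie outside the axes; clock genes are coloured by phase, and dashed lines mark equal size of both. Ciart at 1.18 and Arntl at -0.87 lie far from 0 on the vertical axis and near 0 on the horizontal one, whereas Clock and Nr1d2 lie to the left, at offsets of -0.21.

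Arrays 2 and 4 held the same 2 mice. Arntl stood at -0.49 and -0.38 there, Ciart at 0.68 and 0.86 and Cry1 at -0.16 and -0.11, so these genes kept sign and near size when the dyes were exchanged. Tef and Usp2 kept sign too, while Clock, Npas2, Per3, Nr1d2 and Wee1 had opposite signs on the 2 arrays. In all, 5 of the 10 genes kept their sign as deposited, beside 45% of all genes. Had the authors not turned the swapped arrays, a kept sign would mean opposite directions of salt on arrays 2 and 4.

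With arrays 1 and 2 turned against arrays 3 and 4, the means became 0.14 ± 1.10 for Arntl, 0.08 ± 0.31 for Cry1, -0.08 ± 1.39 for Ciart, -0.05 ± 0.31 for Per3, -0.30 ± 0.36 for Usp2 and -0.39 ± 0.63 for Tef (SD, n = 3 pairs). The signs of these 6 genes were reversed, and for Arntl, Cry1 and Ciart the arrays of the same mice, 2 and 4, then had opposite signs, as did pairs 1 and 3. Wee1 was at 0.22 ± 0.77, Nr1d2 at 0.18 ± 0.21 and Npas2 at 0.019 ± 0.055. In that reading 1 of the 10 genes had 1 sign on all arrays, beside 31.3% of all genes, and it was Clock, at 0.22 ± 0.054. The group medians became 0.11 for the Arntl phase and -0.06 for the Dbp/Per phase. The directions of Arntl, Cry1, Ciart, Per3, Usp2 and Tef and of both group medians therefore depend on the reading of the table as already turned. Wee1, Nr1d2, Clock and Npas2 had positive means in both of these readings. With arrays 3 and 4 turned in place of arrays 1 and 2, each turned mean would keep its size and change sign. The direction of these 4 genes is therefore not settled either.

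**Figure D4:**
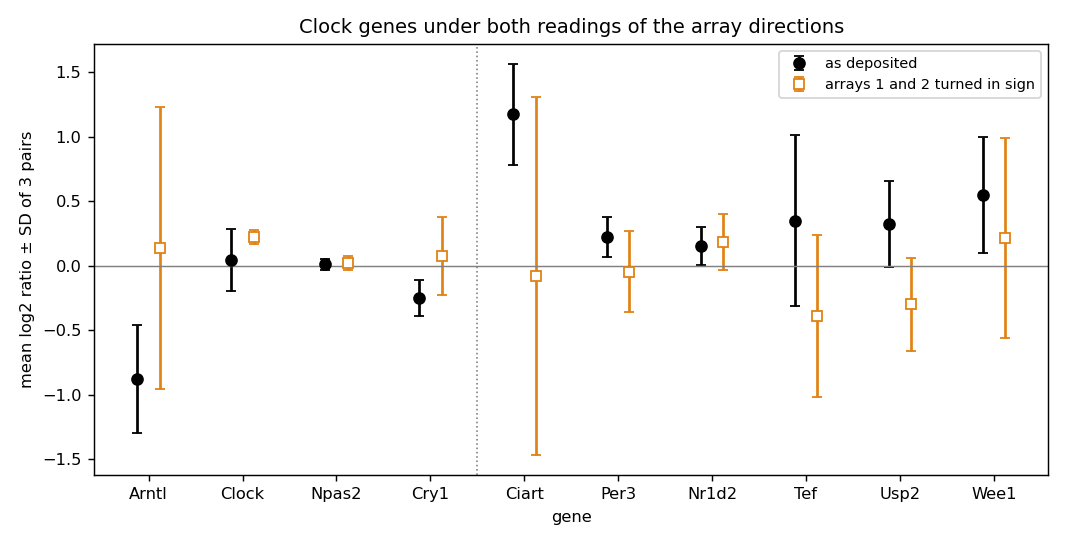
Mean log2 ratio ± SD of 3 pairs (vertical axis) for the 10 clock genes as deposited (black) and with arrays 1 and 2 turned in sign (orange). As deposited, Arntl at -0.87 and Ciart at 1.18 lie apart by more than their SDs, and after turning both lie near 0 with SDs of 1.10 and 1.39.

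The size of the log ratios differed between the animal pairs. Pair 1 gave -1.27 for Arntl, -0.40 for Cry1, 1.55 for Ciart and 0.34 for Per3. Pair 3 gave -0.91, -0.20, 1.22 and 0.29 for the same genes, and pair 2 gave -0.44, -0.14, 0.77 and 0.05, which puts all 4 genes in the order pair 1, pair 3, pair 2. Wee1 differed in having its largest value in pair 3, at 0.99. Tef stood at 1.10, 0.11 and -0.16 in pairs 1, 2 and 3, and Usp2 at 0.68, 0.27 and 0.026, so both fell in that order instead. Pair 2 was the smallest in size for 7 of the 10 genes, beside 44.8% of all genes, and it is the pair that was averaged over 2 arrays.

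Of 26 other core clock genes, 11 were measured, and 15 had no clone with a single symbol here, among them Dbp, Per1, Per2, Cry2 and Nr1d1. The 11 had a median of 0.027, with 6 above and 5 below 0, beside 49.8% of all genes above 0, and 0 of the 11 passed limma's adjusted threshold. With the arrays turned 3 were above 0, and without pair 1 the number was 2. Nono, an RNA-binding protein that associates with PER complexes, was the gene of the 11 with 1 sign on all arrays, beside 14.8% of all genes. It stood at 0.25, 0.17, 0.026 and 0.15, with a mean of 0.14 ± 0.11 (SD, n = 3 pairs).

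Rora, a nuclear receptor that activates Arntl through ROR elements, had a mean of 0.08 ± 0.08 (SD, n = 3 pairs). Among genes that modify clock proteins, the kinases Csnk1d and Csnk1e, which phosphorylate PER, stood at -0.10 ± 0.18 and 0.10 ± 0.50, and Gsk3b, another kinase, at 0.05 ± 0.11. Btrc and Fbxw11, the F-box proteins that mark PER for degradation, stood at 0.026 ± 0.16 and 0.09 ± 0.50. The deacetylases Sirt1 and Hdac3 were at -0.10 ± 0.25 and -0.06 ± 0.18. Noct, a rhythmic protein of the deadenylase family, was at -0.24 ± 0.44 and Timeless, a replication fork protein related to the fly clock gene, at -0.26 ± 0.52. The means of these 10 genes lay between -0.26 and 0.10, and each had mixed signs over the arrays.

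Of 24 genes listed as outputs of the cardiac clock, 14 were measured, 4 above and 10 below 0, beside 50.1% of all genes below 0, with a median of -0.07. None of the 14 passed limma's adjusted threshold (0 of 8106 genes did, and 441 had an unadjusted p under 0.05). Without pair 3 there were 9 above 0, without pair 2 there were 6 and without pair 1 there were 4. With scaled arrays, and with the arrays turned, there were 6, so the split was not steady. Cirbp, a cold-inducible RNA-binding protein with a daily rhythm, stood at -0.15, -0.98, -0.32 and -0.24, and Lpl, the lipase that frees fatty acids from circulating triglyceride, at -0.38, -0.08, -0.27 and -0.0078. Those 2 of the 14 had 1 sign on all arrays, beside 14.8% of all genes. Their means were -0.36 ± 0.23 and -0.23 ± 0.17 (SD, n = 3 pairs).

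Genes that respond to corticosteroids and also run with the day, a list of 10, had 7 measured members, all above 0, beside 49.8% of all genes, and with a median of 0.71. None passed the adjusted threshold of limma. This list, like the others here, was set with earlier results of these data known, so nothing is read from the number above 0. With the arrays turned 2 were above 0 and the median was -0.39. Fkbp5, a cochaperone of steroid receptors, stood at 2.05, 1.36, 1.12 and 0.87, with a mean of 1.43 ± 0.54 (SD, n = 3 pairs). Klf9, a steroid-induced transcription factor, stood at 1.25, 0.80, 0.44 and 0.06, with a mean of 0.71 ± 0.47. The metallothioneins Mt1 and Mt2 had means of 0.89 ± 0.39 and 1.08 ± 0.74. These 4 were above 0 on all arrays, beside 7.01% of all genes, and the other 3, Sgk1, Cdkn1a and Pdk4, were not. Cdkn1a and Pdk4 stand on the list of clock outputs as well.

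**Figure D5:**
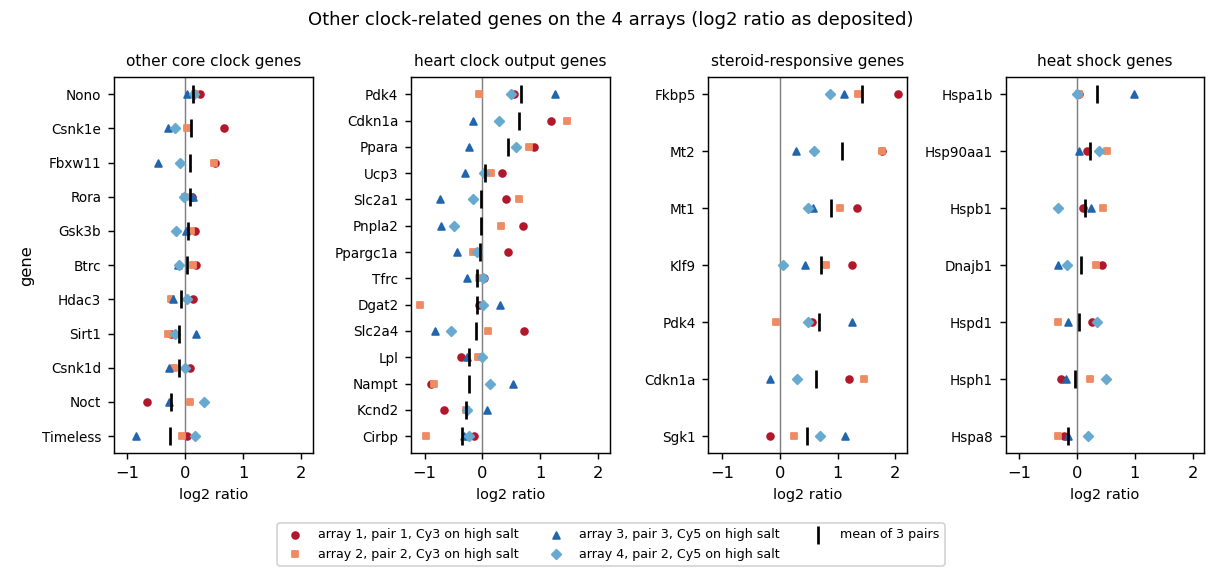
Log2 ratio (horizontal axis, as deposited) of the measured genes of 4 lists on the 4 arrays, with the mean of 3 pairs as a black bar; Cdkn1a and Pdk4 stand on 2 lists. Genes of the steroid-responsive list lie between 0.47 and 1.43 in the mean, and the other core clock genes between -0.26 and 0.14.

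Some markers of other cell types lay away from 0, and others lay near it. All 8 measured fibroblast markers of 9 were above 0, beside 49.8% of all genes, with a median of 0.40 and a range from 0.06 to 1.04, and with the arrays turned the median was -0.05. Endothelial markers (3 of 8 measured) ran from -0.0064 to 0.57. The highest of them, Cdh5, differed in sign between the dye orientations, at 1.47, 2.42, -0.81 and -0.36 on arrays 1 to 4. Smooth muscle and pericyte markers (3 of 6) ran from 0.028 to 0.30, and macrophage and leukocyte markers (3 of 8) from -1.42 to 0.45. Adipocyte markers (4 of 5) ran from -0.06 to 0.37 and blood markers (2 of 5) from -0.04 to 0.0048, and no marker of atrium or skeletal muscle was measured. The part of cell composition in the clock gene values was not tested, and in whole ventricle fewer cells of a type and less RNA per cell cannot be told apart.

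Likeness of profile was measured as the root mean square difference of log2 ratios over the 4 arrays. The genes nearest to the mean profile of the Arntl phase were Akr1cl, at a difference of 0.0451, Zfp568 at 0.0512 and Prpf6, a splicing factor, at 0.0565. Their means were -0.26 ± 0.12, -0.25 ± 0.18 and -0.24 ± 0.17 (SD, n = 3 pairs). Nearest to the Dbp/Per phase were Mxd4, a transcription factor of the MAX network, at 0.124, Rnf169 at 0.14 and Fam117b at 0.147, with means of 0.51 ± 0.23, 0.33 ± 0.18 and 0.46 ± 0.14. Likeness over 4 arrays, of which 2 share their mice, is a description only.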

How the data were processed

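The authors deposited 1 log2 ratio per feature and array for 4 arrays; base 2 is assumed, and no source used here gives the background correction, the normalization or whether swapped arrays were turned. Of 17664 features, 17207 had values. The 736 features at 23 print positions that recur unnamed in all 32 blocks were left out as likely controls, a choice made after values were seen. Symbols came from the platform annotation (12563 features with 1 symbol, 412 with several, 4689 with none), and all 10 clock genes matched RefSeq gene IDs. Clones of 1 symbol were averaged, then arrays 2 and 4, and limma 3.58.1 (R 4.3.3) tested whether the mean of the 3 pair values differed from 0, with Benjamini-Hochberg adjustment at 0.05. The fit was tested on simulated data.

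Members and lists were chosen with earlier results of these data known. Genes named were the 10 members and their clones, every measured other core clock gene, genes of the other lists with 1 sign on all 4 arrays, and the 3 nearest to the mean profile of each phase. Marker lists are given by counts and ranges. Alternatives were the turning of arrays, each array of pair 2 alone, each pair left out, scaling, centring, median clones, control positions kept, a dye covariate and a shorter promoter window. Figures were drawn with matplotlib 3.10.9.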

Additional observations from a re-analysis of the deposited data

How the results depend on the processing

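Turning arrays 1 and 2 reversed Arntl (0.14), Cry1 (0.076), Ciart (-0.079), Usp2 (-0.30), Per3 clone 1 (-0.19) and, among values with mixed signs over the arrays, Per3 (-0.047), Tef (-0.39) and Clock clone 2 (0.36). It also reversed the phase medians (Arntl phase 0.11, Dbp/Per phase -0.063, their difference -0.17 against 0.46 as deposited). Leaving out Arntl, a choice made after seeing the data, turned the Arntl-phase median to 0.010. The number of genes at an unadjusted p under 0.05 was 441, and it was 1683 with the arrays turned, 1188 with a dye covariate and between 145 and 851 without 1 pair (145 without pair 2 and 851 without pair 3). No gene or clone passed an adjusted p of 0.05 in limma under any alternative run. Under the 10 alternatives other than turning, Arntl lay between -1.09 and -0.68, Cry1 between -0.30 and -0.17, Ciart between 0.99 and 1.38, Per3 between 0.17 and 0.31 and Wee1 between 0.33 and 0.77. For these genes the dye covariate, kept control positions and median clones could not change the value. The ends of each range came from leaving out a pair. Without 1 pair the Arntl-phase median lay between -0.17 and -0.09, the Dbp/Per-phase median between 0.18 and 0.41 and their difference between 0.27 and 0.57. Over the first 150 bases of the promoter windows, the ROR element core was in 0 genes in place of 1 and the E-box in 2 in place of 3, which follows from where the matches lie. Without pair 1 or pair 3 the dye orientations are unbalanced.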

Other observations

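Of 10 heat shock genes, whose levels follow the daily rhythm of body temperature, 7 were measured, with 5 above 0 (49.8% of all genes were), a median log2 ratio of 0.06 and a range from -0.15 to 0.35. None passed limma's adjusted threshold (0 of 8106 genes did, and 441 had an unadjusted p under 0.05), and with the arrays turned 3 were above 0. Hsp90aa1, an inducible form of the chaperone HSP90, stood at 0.18, 0.52, 0.035 and 0.38 on arrays 1 to 4, with a mean of 0.22 ± 0.21 (SD, n = 3 pairs). Hspa1b, an inducible HSP70 gene, stood at 0.041, 0.034, 0.99 and 0.0051, so its mean of 0.35 ± 0.55 came from pair 3.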
